A study of Mus musculus with 16 samples.

Results

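Mitochondrial ribosomal proteins are encoded in the nucleus, and the members described here are all genes of the retinal expression table whose symbol begins with Mrpl (large subunit) or Mrps (small subunit) followed by a digit. This rule found 76 of the 25905 genes, of which 47 were named for the large subunit and 29 for the small subunit. RNA was sequenced from the retina of the right eye of wild type C57BL/6 mice that were 10 weeks old at the start of the experiment and, as the methods of the study give, male. The ground control group of 8 mice lived on Earth in the flight type of housing, and the spaceflight group of 8 mice lived on the International Space Station for several weeks and was returned alive. Both groups have been pooled in every value given here. The value used was the authors' mean normalized count of each gene over all 16 libraries, because the columns of single libraries carried laboratory codes that could not be matched to a mouse. The values therefore have no replicate error, and a comparison of spaceflight with ground control was not analysed here.

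Mitochondria keep a small genome of their own, and its messenger RNAs, which encode core subunits of the respiratory chain and the ATP synthase, are translated inside the organelle by a dedicated ribosome. The RNAs of this ribosome come from the mitochondrial genome, while each of its proteins is made in the cytosol and imported. Some of these proteins descend from those of bacterial ribosomes, and others are found only in mitochondria. Photoreceptors crowd mitochondria into their inner segments and have a high demand for ATP.

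The tissue label was checked against marker genes. Rod markers were present, with mean normalized counts of 154477 for Gnat1, the alpha subunit of rod transducin, 29757 for Sag, the rod arrestin, and 88.9 for Nrl, a rod transcription factor with more than 1 listed transcript. The 5 cone markers lay between 537 and 2800. Among genes of neighbouring tissues, the 8 lens genes ran from 8.74 in Lim2 to 898 in Cryaa, with a median of 76.0. The 7 pigment epithelium genes ran from 1.39 in Rlbp1 to 540 in Ttr, with a median of 93.0. Rlbp1 has more than 1 listed transcript. Genes of cornea, muscle and blood were at 11.9 or below. The part of these tissues in the levels of the mitoribosomal genes was not tested. In bulk tissue, a gene used by few cells and a gene used weakly by many cells cannot be told apart.

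Promoter sequences are shown first for 4 members, since the letters around the start sites were a property that the choice of genes did not use. Each sequence is a RefSeq window of the GRCm38.p6 assembly that runs from 250 bases before the annotated transcription start to 50 bases after it, written along the strand of the gene. Capitals mark the core letters CCGGAAG of the ETS family of transcription factors and AAGATGGC of the factor YY1, in either orientation. Mrpl49 and Mrps21 were among the highest members of their subunits, Mrps18a holds both cores, and Mrps11 begins close to the start of a large subunit gene. Mrpl49 lies at chr19:6057706-6058005 on the minus strand, Mrps21 at chr3:95871465-95871764 on the minus strand, Mrps18a at chr17:46110754-46111053 on the plus strand and Mrps11 at chr7:78782881-78783180 on the plus strand.
Mrpl49: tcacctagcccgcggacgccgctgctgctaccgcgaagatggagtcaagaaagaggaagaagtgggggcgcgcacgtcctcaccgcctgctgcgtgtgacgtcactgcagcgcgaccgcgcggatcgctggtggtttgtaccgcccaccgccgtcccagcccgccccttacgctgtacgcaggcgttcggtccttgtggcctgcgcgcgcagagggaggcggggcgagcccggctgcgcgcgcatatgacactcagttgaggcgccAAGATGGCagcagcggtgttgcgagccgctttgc
Mrps21: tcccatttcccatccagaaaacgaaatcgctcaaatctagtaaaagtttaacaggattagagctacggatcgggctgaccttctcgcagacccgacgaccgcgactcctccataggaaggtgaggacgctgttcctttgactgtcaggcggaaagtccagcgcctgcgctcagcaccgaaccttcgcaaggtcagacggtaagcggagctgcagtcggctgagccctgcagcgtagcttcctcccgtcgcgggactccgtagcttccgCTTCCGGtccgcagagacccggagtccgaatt
Mrps18a: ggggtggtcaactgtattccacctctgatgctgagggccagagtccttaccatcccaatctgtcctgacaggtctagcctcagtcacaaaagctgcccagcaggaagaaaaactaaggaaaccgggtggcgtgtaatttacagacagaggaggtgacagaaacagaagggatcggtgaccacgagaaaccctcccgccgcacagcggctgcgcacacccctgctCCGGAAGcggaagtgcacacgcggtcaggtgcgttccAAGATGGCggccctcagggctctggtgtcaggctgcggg
Mrps11: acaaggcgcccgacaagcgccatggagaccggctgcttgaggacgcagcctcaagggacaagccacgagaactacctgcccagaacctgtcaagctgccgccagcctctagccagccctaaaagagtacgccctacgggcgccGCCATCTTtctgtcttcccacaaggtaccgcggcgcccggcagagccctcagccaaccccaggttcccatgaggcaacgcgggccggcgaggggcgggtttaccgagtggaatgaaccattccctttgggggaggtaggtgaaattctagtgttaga

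The mitoribosomal genes were expressed at moderate and similar levels. Together they held 0.183% of the summed mean normalized counts of all genes, of which the large subunit genes held 0.129% and the small subunit genes 0.0531%. Of the 76 members, 72 were above the median of all genes, which was 6.98. A mean normalized count between 100 and 300 was found in 55 members, and the share of all genes in this range was not counted. The median of the members was 150 and their quartiles were 107 and 219. The 69 members with 1 listed transcript had a median of 161 and quartiles of 121 and 228. The 11421 genes with 1 listed transcript and a mean normalized count of 10 or more had a median of 188 and quartiles of 62.6 and 507.

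The highest mean normalized count was that of Mrpl49, a large subunit protein found in mitochondria and not in bacteria, at 795. The next highest were Mrpl34 at 345, Mrps25 at 342 and Mrpl42 at 340. At the low end of the genes with a single listed transcript were Mrpl16 at 63.7, Mrps18c at 65.9 and Mrpl36 at 73.2. The highest of these genes was thus 12.5-fold above the lowest. Mrps25, Mrpl16 and Mrpl36 were singled out after their values were seen.

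A small number of members stood apart at near zero levels. These were Mrps33 at 7.80, Mrpl48 at 6.11, Mrps10 at 5.48, Mrps2 at 0.125 and Mrps36 at 0.0618 mean normalized counts. Mrps2 and Mrps10 belong to the conserved core of the small subunit, and Mrpl48 to the central protuberance of the large subunit. Mrps36 carries the name of the small subunit, but its protein is known as a component of the 2-oxoglutarate dehydrogenase complex. Each of these 5 genes has more than 1 transcript in the annotation that the authors counted against. The remaining members with more than 1 listed transcript were Mrpl1 at 76.2 and Mrpl15 at 71.7.

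The members were then split by the number of listed transcripts. Of the 69 members with 1 listed transcript, 0 were under a mean normalized count of 10 and their median was 161. Of the 7 members with more than 1, 5 were under 10 (71.4%) and their median was 6.11. Over the whole table, 48.3% of the 22086 genes with 1 listed transcript were under 10, and 75.4% of the 3794 genes with more than 1. Among genes of complexes I, II and IV of the respiratory chain and of the ATP synthase, 0 of 60 genes with 1 listed transcript were under 10. Of the 5 genes with more than 1, 3 were under 10. No list of complex III genes was made. Ndufs1, the largest subunit of complex I, and Tufm, the mitochondrial elongation factor Tu, were listed at 0, and each has more than 1 listed transcript. How reads were assigned among the listed transcripts was not tested, and the low values of these genes are given here as listed and not as absence of the messenger RNA. The subunits are therefore also compared over the genes with 1 listed transcript.

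**Figure D1:**
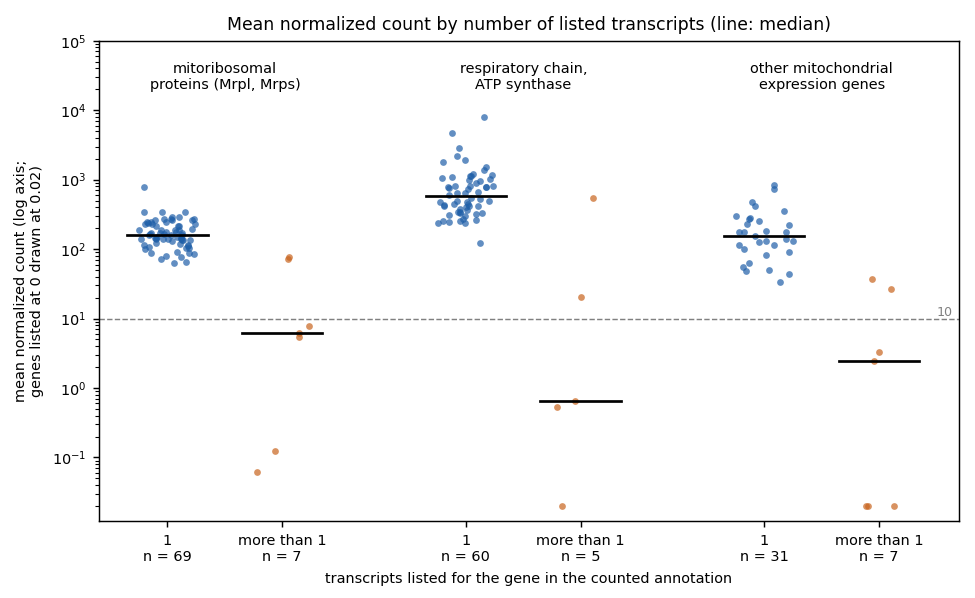
Mean normalized count of single genes (log axis, authors' mean over 16 libraries) by the number of transcripts listed for the gene. The sets are the mitoribosomal genes, nuclear genes of the respiratory chain (complexes I, II and IV) and ATP synthase, and other genes of mitochondrial expression. Each point is a gene, black lines are medians, and genes listed at 0 are drawn at 0.02. The 69 mitoribosomal genes with 1 listed transcript all sit above 10 (dashed line), and 5 of the 7 with more than 1 sit below it.

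To compare levels between genes of different length, each mean normalized count was divided by the length of the transcript in kilobases. On this scale the large subunit genes were higher than the small subunit genes. The median was 128 per kb for the 47 large subunit genes (quartiles 71.1 and 217) and 82.5 per kb for the 29 small subunit genes (quartiles 53.8 and 126), a ratio of 1.55. With means of log2 levels in place of medians, which give more weight to the small subunit genes near zero, the ratio was 2.41. Over the genes with 1 listed transcript, the medians were 139 per kb for 44 large subunit genes and 87.1 per kb for 25 small subunit genes, a ratio of 1.60. The ranges overlapped. Of the 44 large subunit genes, 31 were above the small subunit median, and of the 25 small subunit genes, 3 were above the large subunit median. The direction did not rest on transcript length, since the ratio was 1.38 per kb of coding sequence and 1.36 without scaling. These medians are over genes and not over mice, so no test of the difference was made.

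The highest large subunit genes per kb were Mrpl34 at 568, Mrpl42 at 510, Mrpl54 at 484, Mrpl49 at 451 and Mrpl52 at 389. Mrpl34 is the counterpart of a short and highly basic bacterial ribosomal protein, while Mrpl42, Mrpl49, Mrpl52 and Mrpl54 have no bacterial counterpart. Mrpl34 was at percentile 97.0 of all genes with a known length. In the small subunit, Mrps21 at 560 per kb stood well above the rest on this scale. Mrps28 at 184, Mrps18a at 159, Mrps15 at 138 and Mrps24 at 136 per kb came next. The Mrps21 transcript, of 405 bases, is the shortest of the members. Its mean normalized count of 227 was below those of Mrps25 at 342, Mrps5 at 273 and Mrps26 at 267. Per kb of coding sequence, Mrps21 was at 869 and Mrps25 at 666. Of the 10 highest members per kb, 9 were of the large subunit, which holds 47 of the 76 members. Without scaling by length, the 10 highest included Mrps25, Mrps5 and Mrps26.

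At the other end, the 5 lowest large subunit genes per kb were Mrpl48 at 1.43, Mrpl15 at 17.1, Mrpl1 at 22.2, Mrpl47 at 25.6 and Mrpl35 at 30.2. The 5 lowest small subunit genes were Mrps2 at 0.0601, Mrps36 at 0.0882, Mrps10 at 5.38, Mrps33 at 7.04 and Mrps35 at 25.8 per kb. Mrpl47 lies near the exit of the tunnel through which the new protein leaves the ribosome. Mrpl47, Mrpl35 and Mrps35 have 1 listed transcript each. Their mean normalized counts of 86.2, 112 and 107 were divided by transcript lengths of 3364, 3721 and 4162 bases.

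**Figure D2:**
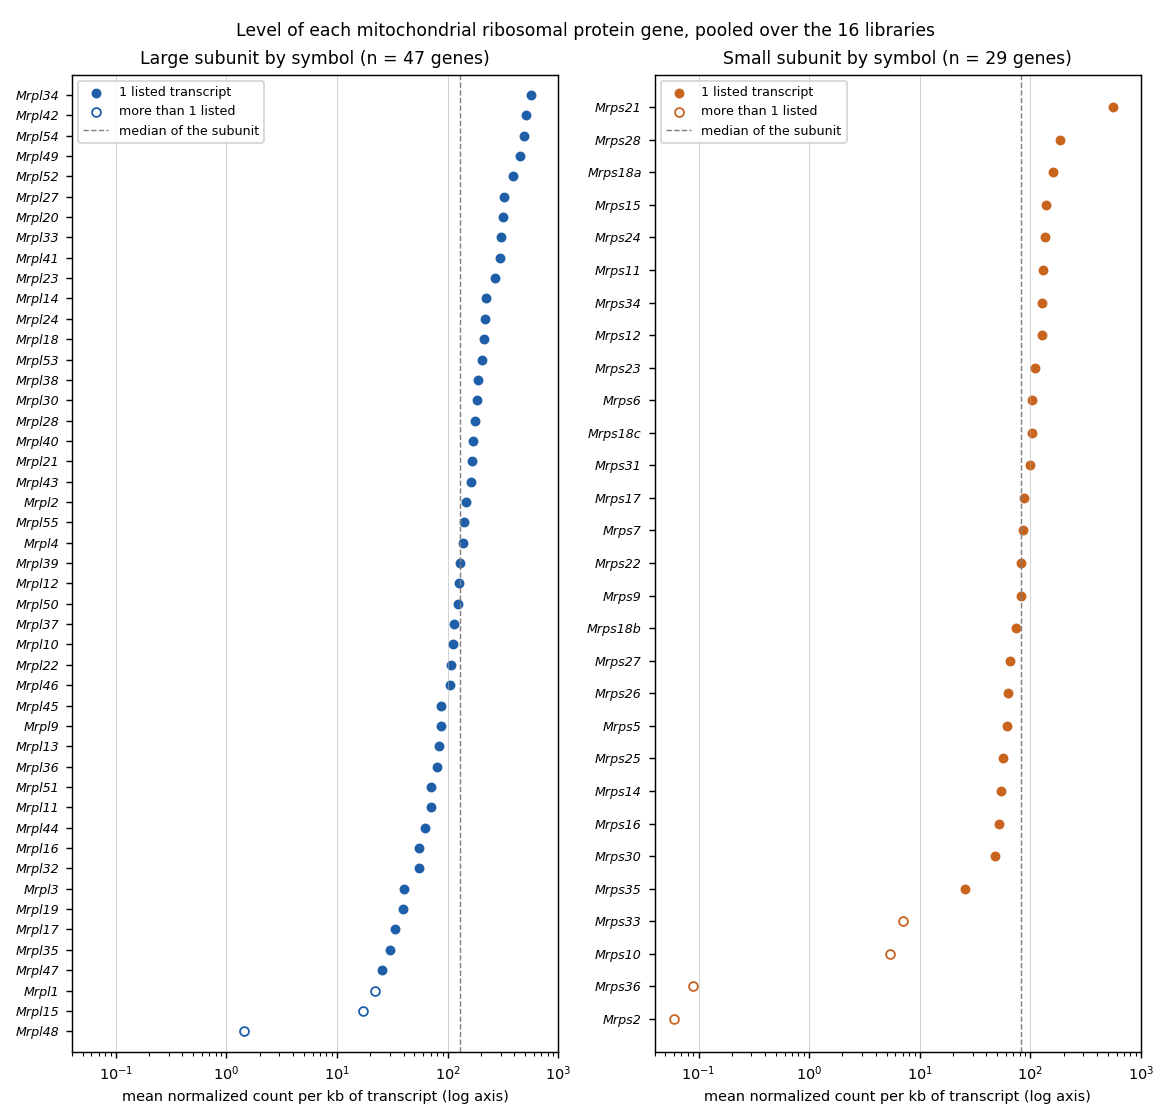
Mean normalized count per kb of transcript (log axis) of each of the 47 large and 29 small subunit genes, in order of level; filled points have 1 listed transcript, open points more than 1, and the dashed line is the median of the subunit, 128 for the large and 82.5 for the small. All 7 open points are at the low end, and Mrps21, which has the shortest transcript, stands apart at the top of the small subunit on this scale.

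Transcript length varied more among the members than their counts did. Over the 69 members with 1 listed transcript, lengths ran from 405 bases in Mrps21 to 7300 bases in Mrpl17, and mean normalized counts from 63.7 to 795. The standard deviation between genes was 0.66 for the log2 count and 1.06 for the log2 level per kb. The Spearman rank correlation across genes between count and transcript length was 0.17, with 0.06 in the large subunit and 0.51 in the small subunit, and between count and coding length it was -0.08. Genes are not independent replicates, and these values are given as a description. Mrpl17 was one of the higher genes by count, at 243, and one of the lower genes per kb, at 33.3. The order of single genes thus depended on the scale: 7 of the 10 highest genes were shared between scaling by transcript and by coding length, and 4 by transcript and without scaling. Mrpl34, Mrpl42, Mrpl49 and Mrpl54 were in the first 10 on each of these scales. Mrpl17 was singled out after its values were seen.

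**Figure D3:**
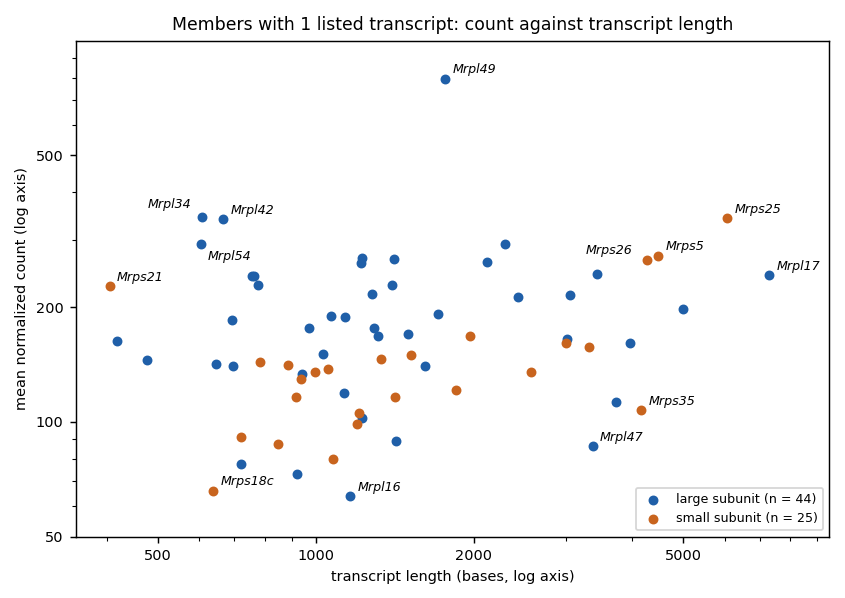
Mean normalized count (log axis) against transcript length in bases (log axis) for the 69 members with 1 listed transcript, 44 of the large subunit and 25 of the small subunit. Counts stay mostly between 100 and 300 over lengths from 405 to 7300 bases, and Mrpl49 lies above the rest at 795.

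The conserved and the mitochondria-specific proteins were then set side by side over the genes with 1 listed transcript. In the large subunit, the median was 132 per kb for 28 conserved genes and 166 per kb for 16 mitochondria-specific genes. In the small subunit the order was the opposite, with 103 per kb for 14 conserved genes and 73.9 per kb for 9 mitochondria-specific genes. The classes overlapped, with quartiles of 66.8 and 216 per kb for the large conserved genes and 111 and 318 for the large specific genes, and of 82.9 and 134 for the small conserved genes and 62.3 and 98.9 for the small specific genes. Over both subunits, the order of 42 conserved and 25 mitochondria-specific genes depended on the scale. The medians were 119 and 113 per kb of transcript, but 251 and 291 per kb of coding sequence and 156 and 212 mean normalized counts without scaling.

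The members were also grouped by the region of the ribosome in which their proteins lie. These groups were chosen after the values were seen. The stalk of the large subunit binds translation factors, and its proteins Mrpl12, Mrpl10 and Mrpl11 were at 128, 112 and 70.8 per kb. In the central protuberance, Mrpl18, Mrpl38, Mrpl40 and Mrpl46 lay between 105 and 215 per kb, with Mrpl48 as the exception described above. The 5 genes of the tunnel exit spanned 25.6 per kb in Mrpl47 to 268 per kb in Mrpl23. Mrpl45, which helps to hold the ribosome at the inner membrane, was at 87.4 per kb. In the decoding region of the small subunit, 6 of 7 genes lay between 60.9 per kb in Mrps5 and 136 per kb in Mrps24, and the remaining gene was Mrps10. Mrps12, the counterpart of the bacterial protein in which streptomycin resistance arises, was at 126 per kb.

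Human respiratory chain deficiencies are known for the 12 members of a list that was also chosen after the values were seen. Their mouse genes with 1 listed transcript, 11 in number, ranged from 40.6 per kb in Mrpl3 to 219 per kb in Mrpl24, with a median of 82.5. Mrps22, Mrps16 and Mrpl44, all linked to such diseases, were at 82.5, 52.4 and 62.6 per kb. The gene of this list with more than 1 listed transcript was Mrps2.

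The Mrps18 genes encode related proteins that occupy different places in the ribosome. Mrps18a, whose protein sits in the large subunit in spite of its name, was highest at 159 per kb and 141 mean normalized counts. Mrps18c was at 103 per kb and Mrps18b at 73.9 per kb. By count the order of the latter pair was the opposite, with 79.7 for Mrps18b and 65.9 for Mrps18c. Mrps30 also belongs to the large subunit by structure and was at 47.4 per kb, with a mean normalized count of 157. With these and the proteins of other symbols placed by structure, and Mrps36 left out, the medians of the large and small subunits differed by a ratio of 1.48.

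Several mitoribosomal proteins carry symbols outside the naming rule. Ict1, a peptidyl-tRNA hydrolase that became part of the large subunit, was at 402 per kb. Chchd1, a small subunit protein, was at 287 per kb and Aurkaip1, also of the small subunit, at 220. Ptcd3 of the small subunit and Gadd45gip1 of the large subunit were at 135 and 108 per kb, and Mrp63 of the large subunit was at 39.8. These 6 genes have 1 listed transcript and a median of 178 per kb, against 113 per kb for the 69 members. Dap3, a GTP-binding protein of the small subunit, has more than 1 listed transcript and was at 0.694 per kb.

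Per kb of transcript, the mitoribosomal genes had a higher median than mitochondrial translation factors, assembly factors, and the list of transcription and messenger RNA genes. Their median was lower than those of complexes I, II and IV of the respiratory chain. Over genes with 1 listed transcript, the median of the 7 mitochondrial translation factors was 49.2 per kb, so that of the members was 2.31-fold higher. The highest of these was Mtif2, the initiation factor that brings the first tRNA to the ribosome, at 173 per kb. Mtif3, which keeps the subunits apart before initiation, was lowest at 25.9, apart from the factors with more than 1 listed transcript, of which Tufm was lowest and listed at 0. The median of the 12 assembly factors of the mitoribosome was 47.5 per kb, a 2.39-fold difference. Dhx30, an RNA helicase, was highest at 186 and Fastkd2, an RNA-binding protein, lowest at 18.5 per kb, while Gtpbp5, with more than 1 listed transcript, was listed at 0. The list of transcription and messenger RNA genes also holds Polg and Peo1, the polymerase and helicase of mitochondrial DNA. Its 6 genes with 1 listed transcript had a median of 57.9 per kb. They ran from Peo1 at 28.5 and Polg at 35.5 to Lrpprc, which stabilizes mitochondrial messenger RNAs, at 192. Mterf, with more than 1 listed transcript, was listed at 0. Per kb of coding sequence, the median of the members was 1.67-fold that of the translation factors, 2.22-fold that of the assembly factors and 2.50-fold that of the transcription and messenger RNA genes. Without scaling by length the order was not the same throughout: the median mean normalized count was 161 for the members, 128 for the translation factors, 124 for the assembly factors and 229 for the transcription and messenger RNA genes.

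The median of the 33 complex I genes was 554 per kb, 4.89-fold that of the members. It was 359 per kb for the 4 genes of complex II, which has no subunit encoded in mitochondria, 3.17-fold that of the members. Complex IV genes had the highest median, at 1536 per kb for 10 genes, 13.6-fold that of the members. The 13 ATP synthase genes were at 1136 per kb, 10.0-fold. Within these complexes the extremes were Ndufb9 at 1504 and Ndufab1 at 73.2 per kb in complex I, Sdha at 978 and Sdhc at 156 in complex II, and Cox8a at 3965 and Cox7b at 532 in complex IV. In the ATP synthase, Atp5b, the catalytic subunit, was highest at 4179 per kb. Counting genes with more than 1 listed transcript, the lowest of complex I was Ndufs1, listed at 0, and that of the ATP synthase was Atp5g1 at 0.140 per kb. Proteins of the cytosolic ribosome, 75 genes, had a median of 1379 per kb, 12.2-fold that of the members. By coding length, the same ratios were 4.22 for complex I, 3.30 for complex II, 13.4 for complex IV, 7.44 for the ATP synthase and 9.51 for the cytosolic ribosome. Without scaling by length, the median mean normalized counts were 420, 497, 1066, 809 and 1126 in the same order, against 161 for the members. As ratios, all were closer to the members on this scale than per kb, and the cytosolic ribosome was highest. The 10372 genes of the table with a known length, 1 listed transcript and a mean normalized count of 10 or more had a median of 73.2 per kb.

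**Figure D4:**
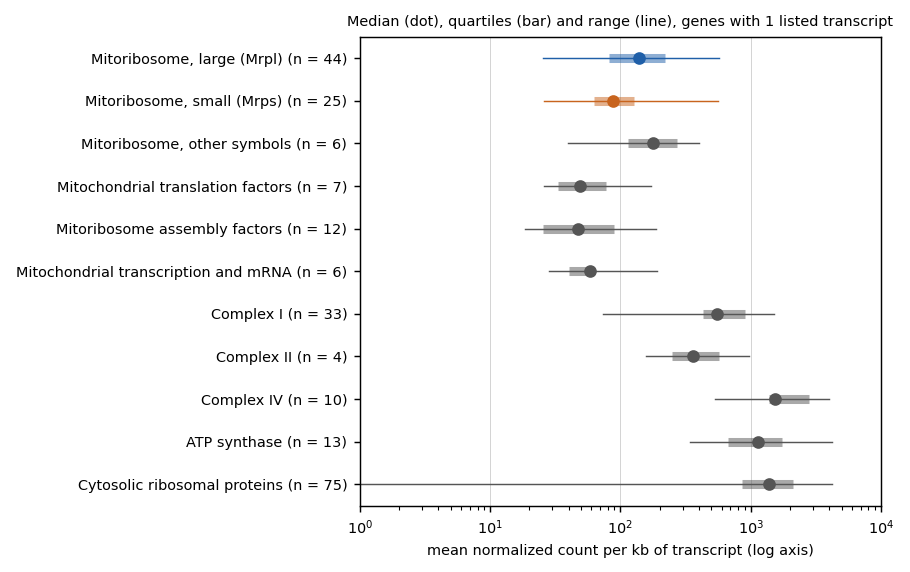
Mean normalized count per kb of transcript (log axis) for sets of genes with 1 listed transcript; dots are medians, thick bars run between the quartiles and thin lines between the lowest and highest gene, with the axis starting at 1. The large (139) and small (87.1) mitoribosomal subunits lie above the translation and assembly factors (49.2 and 47.5) and below complexes I, II and IV, the ATP synthase and the cytosolic ribosome.

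Promoter windows were found for 67 members, some with more than 1 start site, giving 73 windows. No window was used for Mrpl4, Mrpl13, Mrpl15, Mrpl19, Mrpl38, Mrpl54, Mrps28, Mrps34 and Mrps35. The windows were compared with 10268 windows of genes with a mean normalized count of 10 or more, which include 65 of the member windows. The other 8 belong to the members under 10. All letters were searched on both strands, and the ETS and YY1 cores can share the letters AAG where they meet. A match is a run of letters and not a measured site.

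The ETS core CCGGAAG was present in 24 of the 73 windows (32.9%), against 16.1% of the windows of genes with a mean normalized count of 10 or more. Of its 28 matches, 25 began within 100 bases of the start. In the sequences above it began 26 bases before the start of Mrps18a, and in Mrps21 it lay after the start on the opposite strand. The YY1 core AAGATGGC was present in 12 windows (16.4%), against 4.01%. It began after the start, on the strand of the gene, in 8 of its 12 matches, as in Mrpl49 at base 17 and Mrps18a at base 12. In Mrps11 it lay 107 bases before the start, on the opposite strand. Every match of this core holds ATG, the letters of a start codon. Whether the matches after the start are the place where translation begins was not tested.

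The core of NRF1, a regulator of many nuclear genes for mitochondria, was searched as CGCATGCG. It was present in 7 windows (9.59%), those of Mrpl9, Mrpl10, Mrpl17, Mrpl22, Mrpl32, Mrpl39 and Mrps18b, against 3.63%. By subunit, it was in 6 of the 46 large subunit windows (13.0%) and in 1 of the 27 small subunit windows (3.70%). With a G before it and a C after it, it was present in 3 windows (4.11%), against 1.97%, and the shorter core was searched after this result was seen. The CCAAT box CCAAT (41.1% against 37.6%) and the TATA box TATAAA (6.85% against 7.19%) were close to the other genes, and the GC box GGGCGG was in fewer windows (52.1% against 62.7%). The ETS and YY1 cores were present in both subunits. The ETS core was in 28.3% of the 46 large subunit windows and 40.7% of the 27 small subunit windows, and the YY1 core in 13.0% and 22.2%. The GC box was in 43.5% of the large and 66.7% of the small subunit windows.

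The members with and without a core had overlapping levels. Over members with a window and 1 listed transcript, the median mean normalized count was 154 in 22 genes with the ETS core and 165 in 39 genes without it. For YY1 it was 139 in 12 genes and 163 in 49 genes. The order was the opposite for NRF1, with 165 in 7 genes with the core and 161 in 54 genes without it.

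**Figure D5:**
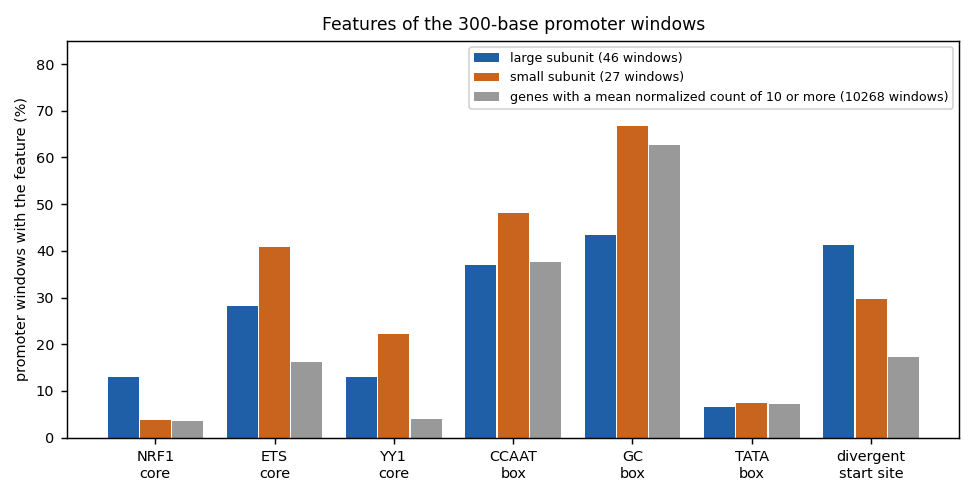
Share of 300-base promoter windows (percent) that hold each run of letters or that have the start site of another gene on the opposite strand within 1000 bases upstream, for the large subunit (46 windows), the small subunit (27 windows) and genes with a mean normalized count of 10 or more (10268 windows). The bars of both subunits exceed the grey bar for the ETS core, the YY1 core and the divergent start site, and for the GC box the large subunit lies below it.

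Many members started near a neighbour transcribed in the opposite direction. A divergent start site lay within 1000 bases upstream in 27 of the 73 windows (37.0%), against 17.2% of the windows of genes with a mean normalized count of 10 or more, and this concerned 25 members. The share was 41.3% in the large and 29.6% in the small subunit. The neighbours named here were chosen after their values were seen. Mrpl46 and Mrps11, one gene of each subunit, start 42 bases apart and had mean normalized counts of 119 and 138. Mrps12 starts 147 bases from Sars2, the mitochondrial seryl-tRNA synthetase, and the counts were 91.3 and 81.7. Mrps27 starts 108 bases from Ptcd2, which acts on mitochondrial messenger RNA, with counts of 121 and 144. Mrpl43 starts 116 bases from the helicase gene listed as Peo1, with counts of 228 and 99.5. Mrpl47 starts 308 bases from Ndufb5 of complex I, with counts of 86.2 and 329.

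Other neighbours had levels far from that of the member. Mrpl27 was at 242 and its neighbour Eme1, which encodes a subunit of a DNA repair nuclease, at 0.879. Mrpl14 was at 142 and its neighbour Tmem63b at 1307. Among the 20 members whose neighbour has 1 listed transcript and is not itself a member, the neighbour was higher in 10 and lower in 10, and the ratio of neighbour to member ran from 0.00364 to 9.20 with a median of 0.993.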

How the data were processed

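Total RNA from retina was made into stranded libraries by the submitters, whose processing notes name Trimmomatic, TopHat2, HTSeq and DESeq2 1.22.2 in R 3.5.1. The signal value used here is the deposited mean of size-factor-normalized counts, which the authors took across all 16 libraries. The 32 deposited columns of counts per library (16 in each of 2 tables) carried codes that match no sample label and were not used. The 5 columns of the authors' own comparison (log2 fold change, its error, statistic, p-value and adjusted p-value) were not used either. The planned comparison of the groups could therefore not be run, the depth per library is not given, and no value has a replicate error.

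Transcript and coding lengths came from the GENCODE annotation of GRCm38, which is newer than the assembly counted by the authors. All 76 members were matched by listed RefSeq accession. A length was found for 20513 genes (79.2%) in all, by accession or, where none matched, by symbol. Where more than 1 transcript matched, the one with the longest coding sequence, and then the longest transcript, was taken. Whether its length is that of the form the authors counted was not tested. In 25 rows the symbol had been turned into a date. Levels were divided by length, and sets were described by medians and quartiles with pandas 2.3.3. The calculation of the ratio of medians was checked on simulated data with known ratios, which is no test of the difference between subunits. Named genes were the 5 highest and 5 lowest members per kb of each subunit, members under a mean normalized count of 10, the Mrps18 genes, Mrps30, Mrps36, mitoribosomal proteins with other symbols, and the highest and lowest gene of each other list. The members and lists were chosen with earlier results of these data known. Alternatives were coding length, no scaling, a floor of 10, subunits by structure, means of log2 values and, added after seeing the data, genes with 1 listed transcript.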

Additional observations from a re-analysis of the deposited data

How the results depend on the processing

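The large subunit was higher than the small subunit under all 9 alternatives, with ratios from 1.34 to 2.41. The ratio of 1.55 moved to 1.38 with coding length, 1.36 without scaling by length, 1.52 with a mean normalized count of at least 10, 1.48 with subunits by structure and 2.41 with means of log2 levels, which give more weight to the small subunit genes near zero. With 1 listed transcript, chosen after seeing the data, it was 1.60 per kb of transcript, 1.34 per kb of coding sequence and 1.38 without scaling. Leaving out pseudogene rows removed no gene. For spaceflight against ground control, the other settings (DESeq2, no filter on low counts, the replicate block and a threshold of 0.05) were not run, since the comparison itself could not be made. No paired analysis was possible because the columns of single libraries could not be matched to mice. Replicate spread and depth per library were not calculated from the unmatched columns. A difference between genes is therefore not set against the variation between mice here.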
